A study of Homo sapiens with 12 samples.

Results

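The aldehyde dehydrogenases are a family of NAD(P)-dependent enzymes that oxidize aldehydes to carboxylic acids, and they were followed here in A375, an established human melanoma cell line. The members were taken by symbol from a list set with earlier results of these data known. They were ALDH1A1, ALDH1A3, ALDH1B1, ALDH1L2, ALDH2, ALDH3A2, ALDH3B1, ALDH7A1, ALDH9A1 and ALDH18A1. All 10 were found among the 4918 genes analysed here (symbols from A1BG to FAM46B), which hold 17 rows whose symbol starts with ALDH. The other 7 are described after the members.

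The cells were left without SB-3CT or IFNγ (control), or received SB-3CT, a small-molecule inhibitor of the matrix metalloproteinases MMP2 and MMP9, or the cytokine IFNγ, which induces PD-L1, or both. Exposure lasted 24 h, all groups share the A375 background, the labels name vehicle beside SB-3CT, and they give no dose for the sequenced cells. RNA of 3 samples per group, 12 in all, was sequenced, and expression was given as FPKM (fragments relative to transcript length and to the sample's total), which corrects for transcript length and so lets levels of different genes be compared. The labels do not say whether the 3 samples of a group came from separate cultures, so that p-values measure only the spread between these samples, which may be technical. Because a single line in culture was measured as bulk RNA, fewer cells expressing a gene and less of its RNA per cell cannot be told apart.

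The family removes reactive aldehydes that come from lipid peroxidation, alcohol and amino acid breakdown, and its members differ in substrate and in the compartment where they act. A cytosolic branch (ALDH1A) turns retinaldehyde into retinoic acid, a ligand of nuclear receptors, and the activity of this branch is widely used to mark stem-like tumour cells, also in melanoma. Other members serve folate, proline, lysine, carnitine and fatty aldehyde metabolism.

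The IFNγ labels were checked first. CXCL10, a chemokine gene induced by IFNγ, lay between 0 and 0.05 FPKM in the 6 samples without IFNγ and between 78.7 and 122 FPKM in the 6 samples with it, and CD274, which encodes PD-L1, lay between 0.428 and 0.808 FPKM without and between 13.5 and 23.9 FPKM with IFNγ. Of 8 melanoma markers, 6 averaged at least 1 FPKM, with ERBB3 at 57.1 and CSPG4 at 48.5 FPKM in controls, whereas DCT averaged 0.278 and ABCB5 0.0124 FPKM. The summed FPKM of these 8 markers was 127 to 131 in control, 98.7 to 108 with SB-3CT, 96 to 99.5 with IFNγ and 70.8 to 75.7 with both, and its part in the changes below was not tested. The table held 3 of 6 lymphocyte, 2 of 4 macrophage, 3 of 3 fibroblast and 2 of 3 endothelial markers. Those present summed to at most 0.66 FPKM per cell type in any sample. Of 5 epithelial markers 3 were in the table, of which CLDN4 alone averaged over 1 FPKM, and their sum lay between 8.2 and 12.5 FPKM.

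The family was dominated by 1 gene of the retinoic acid branch. ALDH1A3, one of the retinaldehyde dehydrogenases, reached 119 ± 7.17 FPKM (SD, n = 3) in control and held 41.9% of the summed FPKM of the 17 ALDH rows, and its share lay between 44.9% and 45.1% in the treated groups. ALDH18A1 and ALDH9A1 followed at 35.2 ± 1.42 and 33 ± 0.871 FPKM in control (SD, n = 3). ALDH1A1, the closest relative of ALDH1A3 among the members, stood at the other end with 0.0821 ± 0.0281 FPKM in control (SD, n = 3) and never passed 0.147 FPKM in any sample. It was the only member that averaged under 1 FPKM. No change of ALDH1A1 was detectable at this level in any of the 4 comparisons of pairs. The 95% intervals of its change lay between -0.12 and 0.10 on the log2(FPKM + 1) scale. At so low a level that scale compresses changes, so these intervals do not exclude large relative ones. Its mean FPKM differed by 8.76% with SB-3CT and 5.17% with IFNγ. With both agents it differed by -23% from IFNγ and by -25.6% from SB-3CT.

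The order of the levels in control ran from ALDH1A3 through ALDH18A1, ALDH9A1, ALDH3A2, ALDH2, ALDH7A1, ALDH1B1, ALDH3B1 and ALDH1L2 to ALDH1A1, and no neighbours overlapped there between samples. With SB-3CT, ALDH9A1 stood above ALDH18A1 and ALDH2 above ALDH3A2, and only ALDH1B1 and ALDH3B1, next to each other, overlapped. With IFNγ, ALDH9A1 overlapped ALDH18A1, ALDH3A2 overlapped ALDH7A1, and ALDH7A1 overlapped ALDH2. With both, ALDH9A1 and ALDH18A1 were the only neighbours whose samples overlapped, and ALDH2 stood again above ALDH3A2.

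The highest and lowest members also had the highest and lowest GC content among the promoters read. RefSeq (GRCh38.p14) gave the 250 bases upstream of a start site for 8 of the 10 members, with more than 1 start for ALDH3A2 and ALDH3B1, so that 10 promoters were read. ALDH1L2 and ALDH2 had no entry. The promoters of ALDH1A1 (chr9:72953054-72953303, minus strand) and ALDH1A3 (chr15:100879581-100879830, plus strand) are shown as the extremes of the family in level, and those of ALDH1B1 (chr9:38392452-38392701, plus strand) and ALDH18A1 (chr10:95656712-95656961, minus strand) because both genes fell with IFNγ. All run 5′ to 3′ toward the start site, with CG dinucleotides in capitals.
ALDH1A1: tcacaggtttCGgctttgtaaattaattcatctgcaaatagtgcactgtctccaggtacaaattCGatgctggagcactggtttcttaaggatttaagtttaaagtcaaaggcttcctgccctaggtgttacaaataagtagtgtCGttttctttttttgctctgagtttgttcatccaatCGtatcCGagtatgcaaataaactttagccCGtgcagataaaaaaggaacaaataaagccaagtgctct
ALDH1A3: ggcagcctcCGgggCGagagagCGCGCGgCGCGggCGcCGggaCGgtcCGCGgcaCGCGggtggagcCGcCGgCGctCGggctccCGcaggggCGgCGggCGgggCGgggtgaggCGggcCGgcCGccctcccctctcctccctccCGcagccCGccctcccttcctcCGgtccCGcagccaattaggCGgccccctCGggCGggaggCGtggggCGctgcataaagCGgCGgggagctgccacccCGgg
ALDH1B1: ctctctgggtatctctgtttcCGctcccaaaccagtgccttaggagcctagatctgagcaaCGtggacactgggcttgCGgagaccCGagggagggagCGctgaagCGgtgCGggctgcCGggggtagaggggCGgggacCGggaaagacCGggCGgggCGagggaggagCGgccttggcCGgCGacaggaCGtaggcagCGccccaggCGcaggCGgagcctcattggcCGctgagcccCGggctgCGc
ALDH18A1: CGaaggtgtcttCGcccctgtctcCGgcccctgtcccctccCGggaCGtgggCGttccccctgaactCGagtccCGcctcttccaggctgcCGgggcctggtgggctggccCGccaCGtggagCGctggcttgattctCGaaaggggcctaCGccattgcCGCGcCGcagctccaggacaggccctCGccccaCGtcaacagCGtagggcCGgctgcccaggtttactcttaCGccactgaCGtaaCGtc
The ALDH1A1 stretch was 38.4% G or C with 6 CG dinucleotides, against 82.4% and 38 in ALDH1A3, 70.4% and 23 in ALDH1B1 and 68.8% and 24 in ALDH18A1. Over the 35116 promoters of the table the medians were 58% and 11, and 98.6% of them had a lower GC content than ALDH1A3. Between the extremes, level did not follow GC content. ALDH1B1, at 9.85 FPKM in control, had more than ALDH18A1 at 35.2 FPKM and ALDH9A1 (67.2%) at 33 FPKM. The promoters of ALDH3A2 differed, at 55.6% and 73.2%. On either strand, none of the 10 member promoters held the letters of the gamma-activated site TTCNNNGAA (found in 6.57% of all promoters), of the antioxidant response element TGACNNNGC (10.9%) or of the C/EBP-ATF element TGATGNAA (3.14%). An absent match says only that these letters are not in this window.

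**Figure D1:**
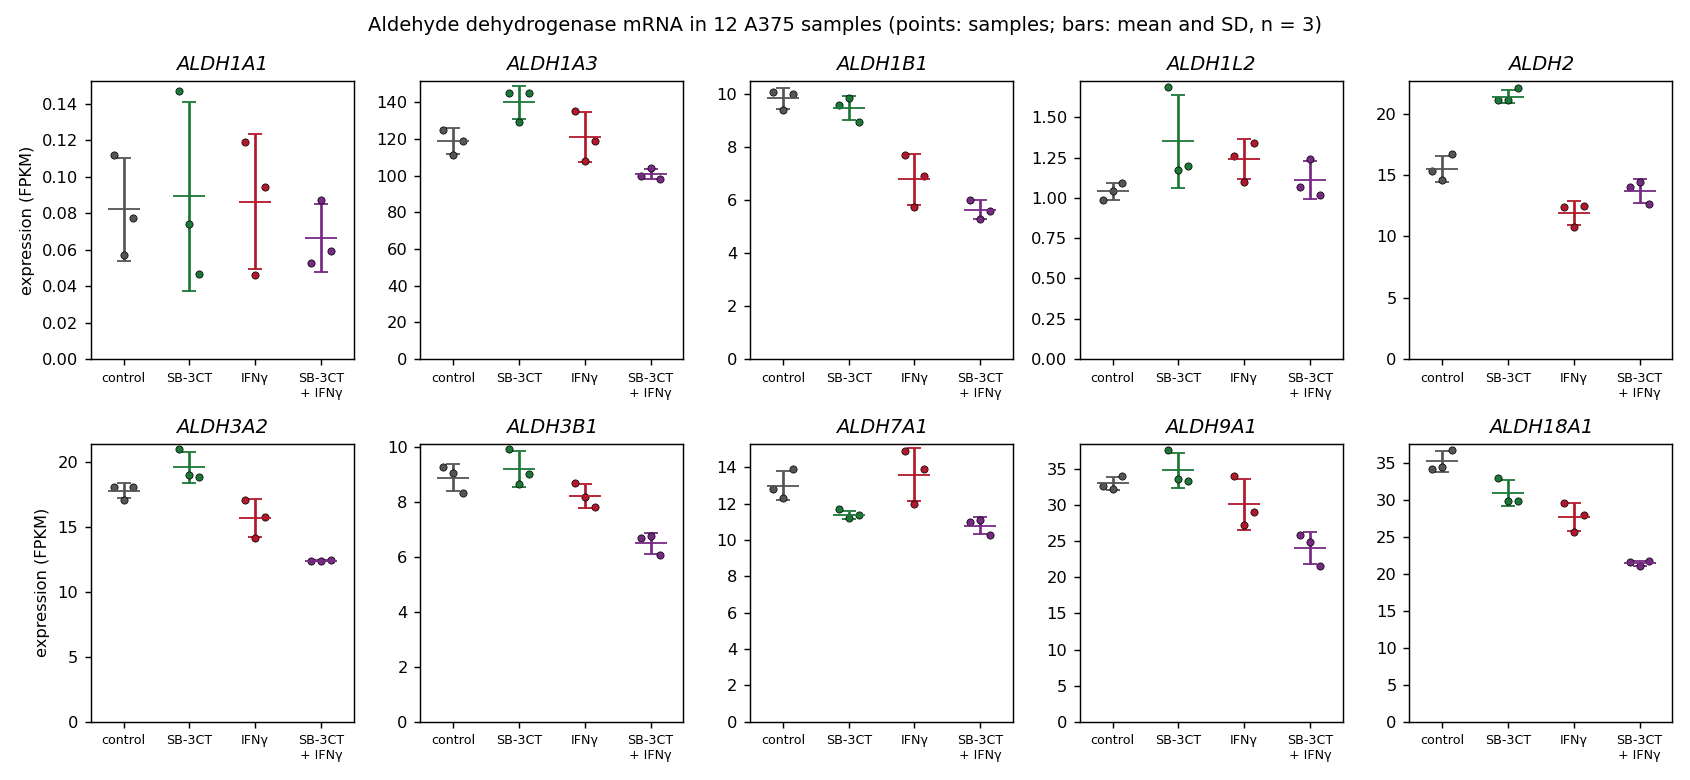
Expression in FPKM (linear axes from 0, each with its own range) of the 10 members in the 12 samples, in 4 groups (points: samples, bars: mean and SD, n = 3). ALDH2 in SB-3CT samples lies between 21.1 and 22.1 FPKM, above every other group, and ALDH1B1 splits into samples without IFNγ, at 8.96 FPKM or more, and samples with it, at 7.69 FPKM or less.

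SB-3CT without IFNγ raised 1 member. ALDH2, the mitochondrial enzyme that oxidizes the acetaldehyde formed from alcohol, measured 15.3, 14.6 and 16.7 FPKM in the 3 controls and 21.1, 21.1 and 22.1 FPKM in the 3 SB-3CT samples. Every SB-3CT sample was above every control. The rise was 0.44 ± 0.06 (SE, n = 3 per group) on the log2(FPKM + 1) scale, or 37.9% in mean FPKM, with an adjusted p of 0.00823 (limma, p adjusted over 4918 genes by the Benjamini-Hochberg method). In this comparison 12.2% of all genes were called, 5.37% as higher and 6.87% as lower, and 1 of 10 members called is near that share. When 1 sample was left out in turn, the adjusted p of ALDH2 ran from 0.0173 to 0.0573 and it was called in 4 of 6 fits, while the share of genes called ran from 1.48% to 18.5%.

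ALDH1A3 of the retinoic acid branch and ALDH18A1 of proline metabolism showed smaller differences that missed the threshold. ALDH1A3 measured 125, 111 and 119 FPKM in control against 145, 129 and 145 FPKM with SB-3CT, without overlap, a difference of 0.23 ± 0.07 (SE) with an adjusted p of 0.0593 by limma. ALDH18A1, which makes the proline precursor pyrroline-5-carboxylate from glutamate, measured 34.2, 34.5 and 36.8 FPKM in control against 32.9, 29.9 and 29.8 FPKM, a difference of -0.18 ± 0.06 (SE) with an adjusted p of 0.0692 by limma. Both differences thus stood just outside the threshold, and both passed it when genes under 1 FPKM were left out, at adjusted p of 0.0208 and 0.0428 by limma. In that fit 28.4% of the genes were called. With 1 sample left out in turn, ALDH1A3 was called in 0 of 6 fits and ALDH18A1 in 1. After median-ratio scaling 3 members were called higher and 0 lower, so ALDH18A1 was not called there, and 13.8% of all genes were. ALDH7A1, antiquitin, which acts in lysine breakdown, also had non-overlapping samples, 12.3 to 13.9 FPKM in control and 11.2 to 11.7 FPKM with SB-3CT, with an adjusted p of 0.101 by limma. Among all genes, 33.9% had no overlap between these groups, and so did 6 of the 10 members. The median change of the 10 members was 0.06, and that of all genes -0.014 on the log2 scale.

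IFNγ alone lowered 3 members and raised none, among 19.5% of all genes called (11% as lower, 8.46% as higher). Among genes with a mean of at least 1 FPKM, 25.7% were called, 14.6% as lower. ALDH1B1, a mitochondrial enzyme related to ALDH2, measured 10.1, 9.4 and 10 FPKM in control and 7.69, 5.75 and 6.9 FPKM with IFNγ. Every IFNγ sample lay below every control, and the gene fell by 0.49 ± 0.10 (SE, n = 3 per group) on the log2 scale, with an adjusted p of 0.0197 by limma. ALDH2 fell from the control values given above to 12.4, 10.8 and 12.5 FPKM, by 0.36 ± 0.08 (SE) with an adjusted p of 0.0226 by limma, again without overlap. ALDH18A1 fell to 29.6, 25.7 and 27.9 FPKM, by 0.34 ± 0.06 (SE) with an adjusted p of 0.0141 by limma, and its samples too lay below every control. Such a lack of overlap was seen in 4 members (the 3 called and ALDH1L2, where IFNγ samples were higher) and in 36.9% of all genes. The 3 calls were also made under each scaling of the samples tried. There the share of all genes called was 22.3% (median ratio), 23.9% (quantile normalization) and 26.5% (trend with transcript length removed). With 1 sample left out the 3 calls were less stable: 0 members were called without control replicate 3 or without IFNγ replicate 3, and 4 without IFNγ replicate 1. The share of all genes called was 11.4%, 11.9% and 17.7% in these fits.

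The remaining members did not pass the test with IFNγ. ALDH1A3 was at 135, 108 and 119 FPKM, a change of 0.02 with a 95% interval from -0.20 to 0.24, so that shifts of that size cannot be told from none. ALDH3A2 and ALDH9A1 had differences of -0.17 and -0.13, and ALDH7A1 one of 0.06. ALDH1L2, a mitochondrial enzyme of folate metabolism that oxidizes formyltetrahydrofolate, was low throughout, between 0.987 and 1.69 FPKM over all 12 samples, and was called in none of the comparisons of pairs. The members' median change was -0.12, and that of all genes -0.018 on the log2 scale.

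ALDH2 was thus higher with SB-3CT and lower with IFNγ than in control, but these comparisons share the 3 control samples. Among the 3176 other genes with a mean of at least 1 FPKM, those whose log2 values followed ALDH2 most closely over the 12 samples were DUSP14 (Pearson r = 0.977), CDKN1A (r = 0.971) and COPS7A (r = 0.963). For ALDH1B1 they were AGPAT1 (r = 0.983), ACAP3 (r = 0.983) and CELSR2 (r = 0.978). These are descriptions over samples that share 4 treatment groups. ALDH2 and ALDH1B1 were the members with the widest range of group means, 0.80 and 0.71 on the log2 scale, against a spread within groups of 0.09 and 0.11 (SD).

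**Figure D2:**
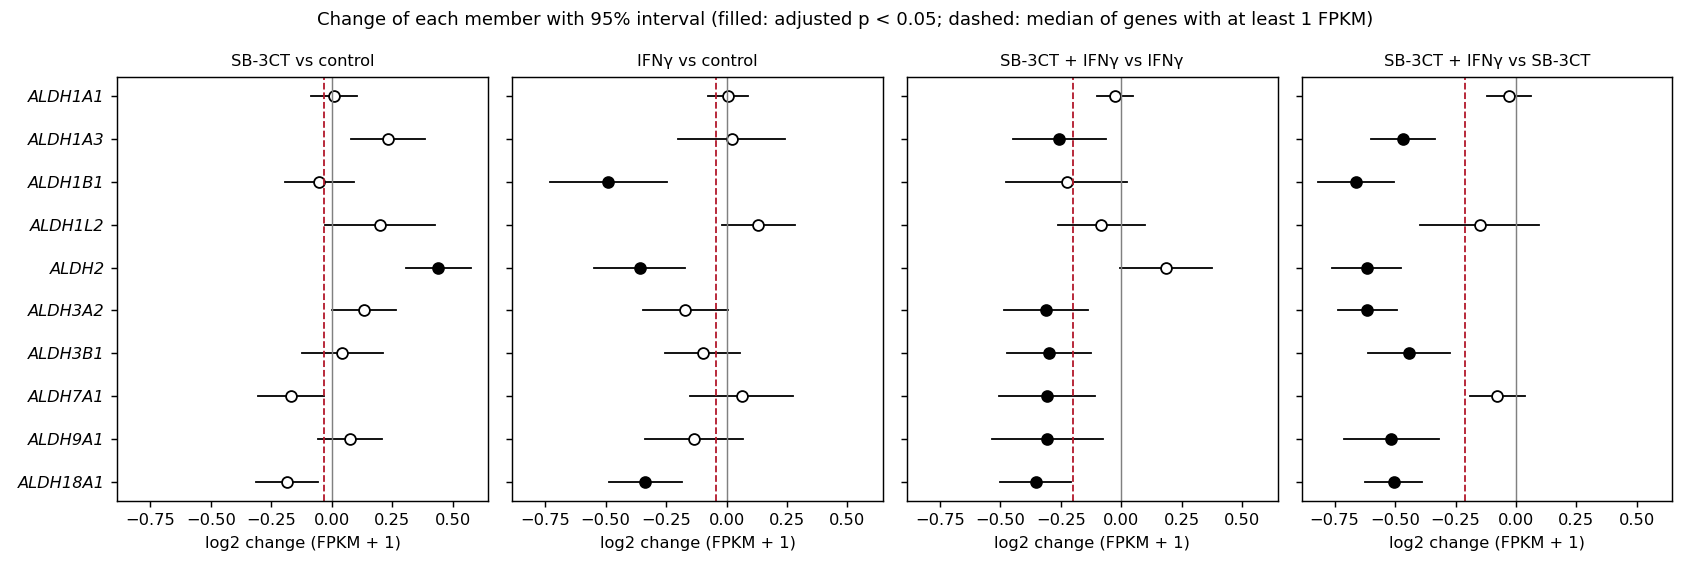
Log2 change of FPKM + 1 (horizontal axis) for each member in 4 comparisons of pairs, n = 3 per group (points: estimates, filled where the adjusted p was under 0.05, bars: 95% interval, dashed line: median of all genes with at least 1 FPKM). Counts of filled points are 1, 3, 6 and 7 from left to right, and the dashed line sits at -0.20 and -0.21 in the last 2 panels. Scaling the samples by the median ratio empties the 6 filled points of the third panel.

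SB-3CT added to IFNγ gave lower deposited values for most members, and over the table more genes were called lower than higher. The summed FPKM of the table was not lower, at 128299 to 129692 with both agents and 122601 to 124670 with IFNγ. Against IFNγ alone 6 members were called lower and 0 higher, and 37.9% of all genes were called, 31.5% as lower and 6.41% as higher. The groups did not overlap in 7 of the members and in 49% of all genes. Among the 3177 genes with at least 1 FPKM, 42.7% were called lower, and their median change was -0.20 on the log2 scale, while the median of the members was -0.28. After each sample was scaled by its median ratio, which moved that median to 0.02, none of the 6 was called, and ALDH2 was called higher instead. In that fit 31.9% of all genes were called.

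ALDH18A1 fell furthest on the deposited scale, to 21.6, 21 and 21.7 FPKM, below each of the IFNγ samples, by 0.35 ± 0.06 (SE) with an adjusted p of 0.00492 by limma, and was at -0.11 with an adjusted p of 0.0856 after median-ratio scaling. ALDH3A2, the fatty aldehyde dehydrogenase of the endoplasmic reticulum, went from 17.1, 14.2 and 15.8 FPKM to 12.4, 12.4 and 12.5 FPKM, a fall by 0.31 with an adjusted p of 0.0145 by limma, against -0.07 after median-ratio scaling. ALDH3B1, which acts on fatty aldehydes from lipid peroxidation, went from 8.68, 8.18 and 7.81 FPKM to 6.68, 6.76 and 6.06 FPKM. In all 3 of these genes the groups did not overlap. The fall of ALDH3B1 was 0.30 ± 0.07 (SE) with an adjusted p of 0.0172 by limma, and its change was -0.07 after median-ratio scaling.

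ALDH7A1 went from 14.9, 12 and 13.9 to 11, 11.1 and 10.3 FPKM, ALDH9A1, which oxidizes an aldehyde on the path to carnitine, from 34, 27.2 and 29 to 25.8, 24.9 and 21.6 FPKM, and ALDH1A3 from 135, 108 and 119 to 99.8, 104 and 98.2 FPKM. Each fell without overlap on the deposited scale, by 0.31 (adjusted p 0.0259), 0.31 (0.0439) and 0.26 (0.0445) by limma, and after median-ratio scaling the changes were -0.07, -0.06 and -0.002. With the trend of the values with transcript length removed, ALDH7A1 and ALDH1A3 turned to 0.02 and 0.03. Under quantile normalization 2 members were called lower, among them ALDH1A3 at -0.34. Leaving out 1 sample in turn gave between 1 and 7 members called, with 3 or fewer in every such fit but that without IFNγ replicate 2. The share of all genes called ran from 25% to 40.2% in these fits. ALDH18A1 was called in 6 of these 6 fits, ALDH3B1 in 5, ALDH3A2 in 3, and ALDH1A3, ALDH7A1 and ALDH9A1 in 1 each.

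ALDH2 went the other way. It measured 12.4, 10.8 and 12.5 FPKM with IFNγ and 14, 14.4 and 12.6 FPKM with both agents, the lowest of these being just above the highest IFNγ sample. On the deposited scale the difference of 0.18 ± 0.08 (SE) was not called, with an adjusted p of 0.118 by limma. It was called higher after median-ratio scaling (0.42, adjusted p 0.0047), quantile normalization (0.40, adjusted p 0.00792) and removal of the length trend (0.61, adjusted p 0.00348), each by limma. The annotated ALDH2 transcript is the longest of the members at 9561 bases, so that the last of these depends on which of its transcripts the cells use.

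**Figure D3:**
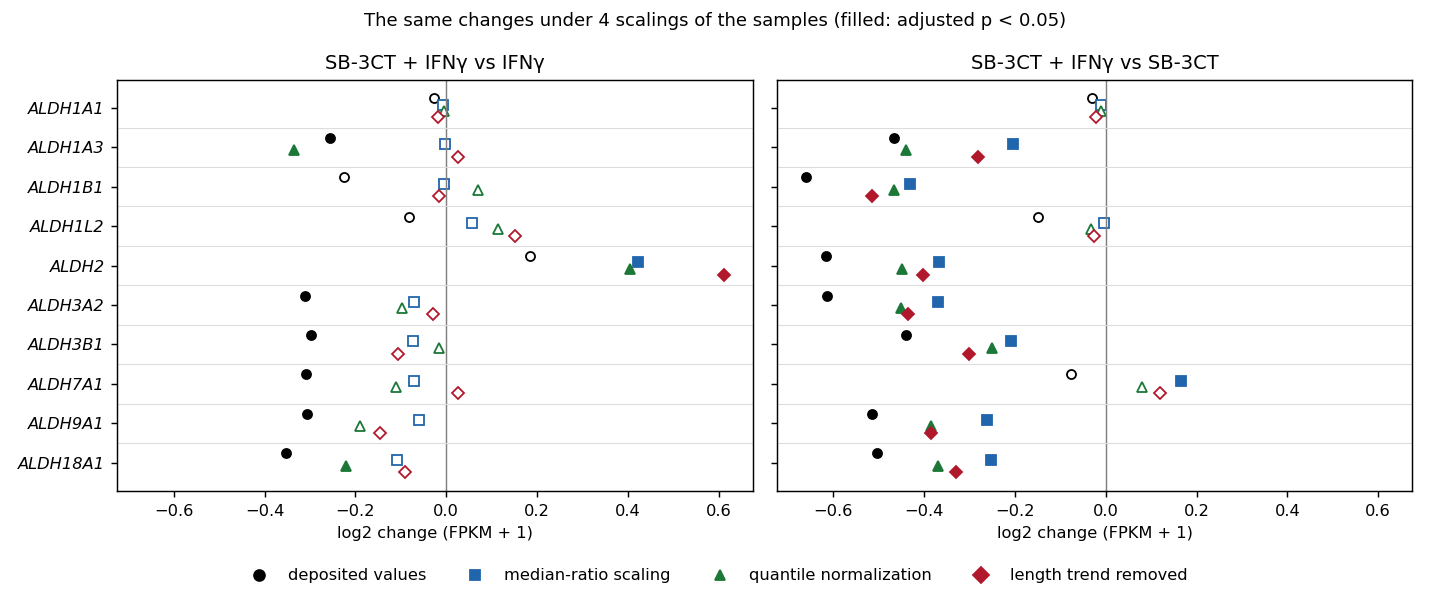
Log2 change of FPKM + 1 (horizontal axis) of each member for SB-3CT with IFNγ against IFNγ (left) and against SB-3CT (right), n = 3 per group, with the deposited values and 3 other scalings (filled: adjusted p under 0.05). On the left the 6 called falls shrink toward 0 or turn, except that of ALDH1A3 under quantile normalization (-0.34 against -0.26), and ALDH2 moves from 0.18 to between 0.40 and 0.61. On the right 7 members stay filled below 0 under all 4 scalings, and ALDH7A1 turns from -0.08 to between 0.08 and 0.17.

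IFNγ in the presence of SB-3CT lowered 7 members, the most of the 4 comparisons of pairs. Against SB-3CT alone ALDH1B1, ALDH2, ALDH3A2, ALDH9A1, ALDH18A1, ALDH1A3 and ALDH3B1 were called lower and 0 members higher, where 40.5% of all genes were called, 32.7% as lower and 7.85% as higher, and 44.4% were called lower among those with at least 1 FPKM. The members' median change was -0.49, against -0.21 for genes with at least 1 FPKM. Samples did not overlap in 8 members (the 7 called and ALDH7A1) and in 51.7% of all genes. All 7 stayed called lower under every alternative tried, 91 of 91 values, the sample scalings and each left-out sample among them. After median-ratio scaling 24% of all genes were called, 504 of them lower. The share was 27.8% (836 lower) under quantile normalization and 28.6% (970 lower) with the length trend removed. With 1 sample left out it ran from 30.6% to 36.2%.

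ALDH1B1 showed the largest fall, from 9.6, 9.86 and 8.96 FPKM to 6, 5.29 and 5.58 FPKM, or by 0.66 ± 0.06 (SE), with an adjusted p of 0.000974 by limma and a change of -0.43 after median-ratio scaling. ALDH2 fell by 0.62 ± 0.06 (SE), from 21.1, 21.1 and 22.1 FPKM to 14, 14.4 and 12.6 FPKM, with an adjusted p of 0.000917 by limma and -0.37 after scaling. ALDH3A2 fell by 36.6% in mean FPKM, from 21, 19 and 18.9 FPKM, with an adjusted p of 0.000576 by limma, and by 0.37 on the log2 scale after scaling. In none of the 3 did any sample with both agents reach the lowest SB-3CT sample.

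The other 4 fell by less. ALDH9A1 fell by 0.52 (adjusted p 0.00437), ALDH18A1 by 0.51 (0.000942), ALDH1A3 by 0.47 (0.00174) and ALDH3B1 by 0.44 (0.00454) by limma, and after median-ratio scaling their changes were -0.26, -0.25, -0.20 and -0.21. ALDH7A1 stood apart, at 11.7, 11.2 and 11.4 FPKM with SB-3CT and 11, 11.1 and 10.3 FPKM with both, a difference of -0.08 that was not called (adjusted p 0.25, limma) and that turned to 0.17, called as higher with an adjusted p of 0.0389, after median-ratio scaling. ALDH1L2 had a change of -0.15 with a 95% interval from -0.40 to 0.10.

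Whether SB-3CT acted differently with and without IFNγ was tested over all 12 samples, and 4 members had a lower SB-3CT change under IFNγ, where 22.3% of all genes were called (17.6% as lower, 4.74% as higher). ALDH1A3 had an SB-3CT change of 0.23 without IFNγ and of -0.26 under IFNγ, a difference of -0.49 ± 0.11 (SE) with an adjusted p of 0.0125 by limma. ALDH3A2 went from 0.13 to -0.31, a difference of -0.44 ± 0.09 (SE) with an adjusted p of 0.00874 by limma. In both genes the SB-3CT samples lay above every control without IFNγ and below every IFNγ sample under it. ALDH9A1 and ALDH3B1 had differences of -0.38 and -0.34, with adjusted p of 0.0426 and 0.0287 by limma.

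The difference of ALDH3A2 was called under each scaling tried, whereas those of ALDH9A1 and ALDH3B1 were called under none of the other 3. ALDH1A3 was called under quantile normalization and stood at -0.28 (adjusted p 0.0504, limma) after median-ratio scaling and at -0.26 (adjusted p 0.0539, limma) with the length trend removed. ALDH2, at 0.44 without and 0.18 under IFNγ, had a difference of -0.26 that was not called (adjusted p 0.0886, limma), and its 95% interval ran from -0.48 to -0.04. These changes share the samples of 4 groups with the comparisons of pairs above.

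**Figure D4:**
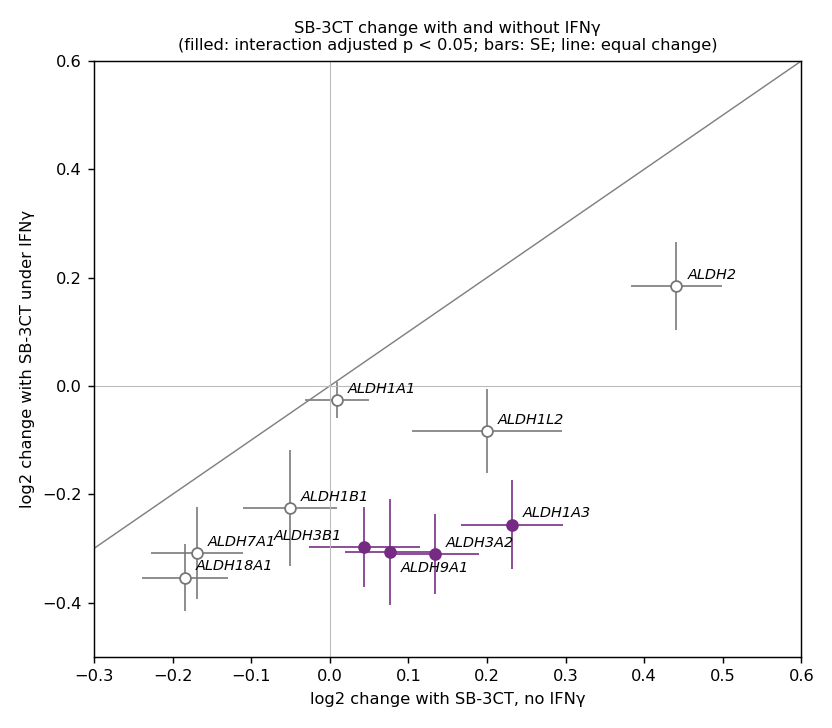
Log2 change of FPKM + 1 with SB-3CT in cells without IFNγ (horizontal axis) and under IFNγ (vertical axis) for each member (filled: difference with an adjusted p under 0.05 over 12 samples, bars: SE, line: equal changes). The 10 points lie below the line of equal change on the deposited scale, and ALDH2 is the only one above 0 on both axes beyond its SE. After median-ratio scaling ALDH3A2 alone of the 4 filled members stays called.

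The ALDH rows outside the list fell into 3 levels. ALDH16A1, a member without the catalytic cysteine in mammals, lay between 20.8 and 26.4 FPKM over all 12 samples and was called in no comparison. ALDH4A1, which breaks down the proline intermediate that ALDH18A1 makes, averaged 4.77 ± 0.233 FPKM in control and 2.87 ± 0.283 FPKM with both agents (SD, n = 3), and fell by 0.38 against IFNγ and by 0.59 against SB-3CT, with adjusted p of 0.0128 and 0.00279 by limma. ALDH5A1 and ALDH6A1, enzymes of GABA and valine breakdown, were also called lower in both of these comparisons, and ALDH6A1 with IFNγ alone (by 0.29, adjusted p 0.0468, limma), though not after median-ratio scaling. None of the 3 was called against IFNγ after median-ratio scaling, and 2 were against SB-3CT. ALDH1A2, ALDH1L1 and ALDH8A1 stayed at or below 0.0741 FPKM in every sample, so that ALDH1A3 was the one ALDH1A gene expressed above 1 FPKM.

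Genes that work beside the family were read from hand-made lists. Among all genes 5.37% were called higher and 6.87% lower with SB-3CT, and 8.46% and 11% with IFNγ. With SB-3CT added to IFNγ these shares were 6.41% and 31.5%, and with IFNγ added to SB-3CT 7.85% and 32.7%. After median-ratio scaling, of 4918 genes 811 were higher and 760 lower in the former, and 675 and 504 in the latter. Of 21 retinoid genes 13 were in the table, and 4 averaged at least 1 FPKM. With SB-3CT 3 were called higher and 1 lower, with IFNγ 1 higher and 3 lower, with SB-3CT added to IFNγ 2 higher and 2 lower (4 and 1 after median-ratio scaling), and with IFNγ added to SB-3CT 1 higher and 2 lower (2 and 2). DHRS3, which reduces retinaldehyde back to retinol and so opposes ALDH1A3, fell by 0.35 with SB-3CT, from 42.1 to 32.8 FPKM (adjusted p 0.0169, limma), and by 0.28 with SB-3CT under IFNγ (adjusted p 0.0302), where it was at -0.03 and not called after median-ratio scaling. AKR1B10, a retinaldehyde reductase, rose by 0.77 with SB-3CT, from 0.647 to 1.82 FPKM, and by 0.89 with SB-3CT under IFNγ, from 0.206 to 1.23 FPKM (adjusted p 0.00897 and 0.00207, limma). AKR1C3, whose close paralogs may share its reads, rose by 0.66 with SB-3CT and by 0.84 with SB-3CT under IFNγ (adjusted p 0.00285 and 0.00139, limma). It fell by 0.74 with IFNγ and by 0.55 with IFNγ added to SB-3CT (adjusted p 0.00014 and 0.00209, limma), the latter by 0.30 after median-ratio scaling. BCO1, which splits carotene to retinaldehyde, rose by 0.65 with IFNγ, from 0.119 to 0.754 FPKM. With IFNγ added to SB-3CT it rose by 0.48, from 0.0801 to 0.52 FPKM. All these means are under 1 FPKM, where the log2(FPKM + 1) scale compresses changes.

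Of 17 other aldehyde and alcohol oxidoreductases all were in the table, with 2 higher and 3 lower with SB-3CT, 2 and 5 with IFNγ, 3 and 2 with SB-3CT added to IFNγ, and 3 and 4 with IFNγ added to SB-3CT. AKR1B1, aldose reductase, rose with SB-3CT from 159 to 229 FPKM, by 0.52, and under IFNγ from 174 to 246 FPKM, by 0.50 (adjusted p 0.0041 and 0.00236, limma). CBR3, a carbonyl reductase, rose with IFNγ from 13 to 44.1 FPKM, by 1.68, and with IFNγ added to SB-3CT by 1.43, while CBR4 fell by 0.49 with SB-3CT and by 0.50 with IFNγ. CAT, catalase, fell by 0.57 with SB-3CT under IFNγ and by 0.82 with IFNγ added to SB-3CT. These calls of AKR1B1, CBR3, CBR4 and CAT were also made under the 3 other scalings, where the counts after median-ratio scaling were 8 higher and 1 lower for SB-3CT added to IFNγ and 7 higher and 1 lower for IFNγ added to SB-3CT.

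Of 26 genes of folate and amino acid metabolism 22 were in the table, with 1 higher and 4 lower with SB-3CT, 2 and 3 with IFNγ, 1 and 7 with SB-3CT added to IFNγ (6 and 5 after median-ratio scaling), and 2 and 9 with IFNγ added to SB-3CT (2 and 2). ASNS, asparagine synthetase, rose in all 4 comparisons, most with SB-3CT under IFNγ, from 42.8 to 75 FPKM or by 0.80 (adjusted p 0.00139, limma). ARG2, a mitochondrial arginase, fell by 1.28 with IFNγ, from 11.5 to 4.14 FPKM, and by 0.93 with IFNγ added to SB-3CT. CPS1, a urea cycle enzyme, fell by 0.51 with SB-3CT, and AASS, which starts lysine breakdown upstream of ALDH7A1, fell by 0.70 with SB-3CT under IFNγ, from 3.67 to 1.88 FPKM (adjusted p 0.00234, limma). In the test over 12 samples the largest differences called were those of ESD (0.57) and DHRS2 (-0.36, called under none of the other 3 scalings) among the oxidoreductases and of ARG2 (0.35) and DHTKD1 (-0.59) among the folate and amino acid genes.

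All members lie on the autosomes of hg19, and their exons bear on what FPKM can separate. ALDH1A3 (chr15:101417919-101456831, plus strand, 13 exons) shares 49.4% of its main transcript, 1715 bases, with ALDH1A3-AS1, an antisense lncRNA annotated on the opposite strand. Strand use in counting was not given in the sources used here, so reads of both genes cannot be told apart. ALDH2 (chr12:112204691-112255336, plus strand) shares 7.11% of its transcript with a second gene model on its strand. ALDH1B1 (chr9:38392699-38398658, plus strand) has 2 exons and ALDH18A1 (chr10:97365698-97416468, minus strand) 18, and neither shares exon bases with another gene in GENCODE release 44 mapped to GRCh37.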

How the data were processed

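RNA of 12 A375 samples, 3 per group, was sequenced on an Illumina HiSeq instrument in paired ends. Per the labels, the authors aligned reads to hg19 with HISAT2 2.0.5 and computed FPKM with StringTie 1.3.3. The annotation and the strand setting were not given in the sources used here. The authors' deposited values fit log2(FPKM + 1): their back-transformed sums are 121928 to 129692 per sample, so no logarithm was taken, although the planned tests assumed plain FPKM. Absolute depth is unknown, and relative depth, read from the steps of FPKM below 0.15, was 87.1% to 150% of the control mean, so no counting error is given.

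Pairs of groups were fitted with limma 3.58.1 in R 4.3.3 (lmFit, eBayes with trend, 3 + 3 samples), and the difference of SB-3CT changes over 12 samples. p-values were adjusted over 4918 genes (Benjamini-Hochberg), and calls are at 0.05. Between 3 and 3 samples an exact two-sided permutation test cannot go below 0.1. Functions were tested on simulated data. Columns were matched to samples by name, 0 were left unused, and 0 pairs of samples were identical. Named genes were all ALDH rows, CXCL10, CD274, the 3 genes closest to each of the 2 members with the widest range, and the largest called rise and fall of each list. The members and lists were chosen with earlier results of these data known. Positions and overlaps came from GENCODE release 44 mapped to GRCh37 (4458 symbols were found as written, 417 by an older name) and promoters from RefSeq. Alternatives were a pseudocount of 0.1, a mean of at least 1 FPKM, median-ratio scaling, quantile normalization, a fit of the length trend per sample that was then subtracted (summed FPKM kept), a fit of all 4 groups, a block for the replicate number, and leaving out each sample.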

Additional observations from a re-analysis of the deposited data

Results flagged for a closer look

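The SB-3CT change of 4 members differed between cells with and without IFNγ in the test over 12 samples, and their values are set out here because this difference itself was tested. It was called for 22.3% of all genes (17.6% as lower), and for 32.3% (25.6% as lower) of those with at least 1 FPKM, where 9 of the 10 members lie. The difference was -0.49 for ALDH1A3 (adjusted p 0.0125, limma), -0.44 for ALDH3A2 (adjusted p 0.00874), -0.38 for ALDH9A1 (adjusted p 0.0426) and -0.34 for ALDH3B1 (adjusted p 0.0287), on the log2(FPKM + 1) scale. With 1 sample left out in turn, ALDH1A3 and ALDH3A2 were called in 12 of 12 fits, ALDH3B1 in 7 and ALDH9A1 in 2. The median of this difference over genes with at least 1 FPKM was -0.19. After median-ratio scaling only ALDH3A2 of the 4 was called, at -0.24 (adjusted p 0.0196, limma).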

How the results depend on the processing

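Of 695 values of single members under the alternatives, 579 kept their direction and their side of the threshold, 68 lost the call, 17 gained one and 31 changed sign. The 7 calls lower with IFNγ added to SB-3CT held in 91 of 91 values, and the 3 calls with IFNγ alone in each alternative that kept all samples. Scaling between samples bore most on SB-3CT added to IFNγ, where the 6 members called became 1 after median-ratio scaling (ALDH2, higher), 3 after quantile normalization and 1 with the length trend removed (ALDH2), and on the difference of SB-3CT changes, where 4 became 1, 2 and 1. Over all genes the called share went from 37.9% to 31.9%, 25.6% and 19.4% under these 3 scalings for SB-3CT added to IFNγ. For the difference it went from 22.3% to 13%, 13% and 9.5%. For IFNγ added to SB-3CT it went from 40.5% to 24%, 27.8% and 28.6%, and for IFNγ alone from 19.5% to 22.3%, 23.9% and 26.5%. With SB-3CT alone the 1 member called became 3 with at least 1 FPKM, 3 after median-ratio scaling, 2 after quantile normalization and 3 with the length trend removed. The share of genes called went from 12.2% to 28.4%, 13.8%, 13.7% and 16.1% in these fits. Leaving out 1 sample in turn gave 0 to 2 members called with SB-3CT, 0 to 4 with IFNγ, 1 to 7 with SB-3CT added to IFNγ, 7 with IFNγ added to SB-3CT and 2 to 6 for the difference. The share of all genes called ran from 1.48% to 18.5%, 11.4% to 20%, 25% to 40.2%, 30.6% to 36.2% and 13.8% to 29.5% in that order. Fits with 1 sample left out called fewer or more members than all samples did, and the cause was not tested. Absolute depth is unknown, and ALDH1A1 lies too low for its sign to be read.

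The replicate number as a block called 2, 3, 5, 7 and 4 members in the 5 tests, in the order just given. The share of all genes called was 5.27%, 15.8%, 32.7%, 27.7% and 22% with the block. ALDH1A3 gained a call with SB-3CT (adjusted p 0.0427, limma) and lost it with SB-3CT added to IFNγ (adjusted p 0.0629). Over all genes the block moved the calls from 602 to 259 with SB-3CT. Samples of the same number correlated between -0.39 and 0.33 in their deviations from the group means. Per pair of groups, 0 to 4 of 6 samples correlated best with their own number. The 4 of 6 were reached in the pairs among control, SB-3CT and IFNγ. Whether samples of the same number share a culture or a batch was not tested.

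Changes of sign, all on the log2 scale, were mostly near 0. With the length trend removed ALDH1A3 and ALDH7A1 stood at -0.026 and -0.002 with IFNγ, and at 0.026 and 0.025 with SB-3CT added to IFNγ. In the latter comparison ALDH1L2 turned to 0.057, 0.114 and 0.152 under median-ratio scaling, quantile normalization and removal of the length trend, and ALDH1B1 to 0.071 under quantile normalization. With IFNγ added to SB-3CT, ALDH7A1 turned to 0.166, 0.079 and 0.12 under the same 3 settings. For the difference, ALDH1B1 turned to 0.009, 0.094 and 0.004 and ALDH7A1 to 0.059, 0.017 and 0.122 under them, ALDH18A1 to 0.035 (median ratio) and 0.049 (length), and ALDH2 to 0.05 (length). Leaving out 1 sample gave signs both ways for ALDH1A1 in 4 tests (-0.029 to 0.037 with SB-3CT, -0.016 to 0.032 with IFNγ, -0.058 to 0.008 with IFNγ added to SB-3CT, -0.063 to 0.003 for the difference), for ALDH3B1 with SB-3CT (-0.007 to 0.084), and for ALDH1A3 and ALDH7A1 with IFNγ (-0.062 to 0.099 and -0.003 to 0.143).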
